A study of Homo sapiens with 29 samples.

Results

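The interaction of DAXX siRNA and crotonate on RNA was described for 17973 of the 38148 genes in the deposited expression table. It is the crotonate effect in cells with DAXX siRNA minus the crotonate effect in cells with non-targeting siRNA, in log2 units, and it is 0 where the effects of both treatments simply add on that scale. A gene entered when it had a log2 RPM (reads per 1000000 reads) of at least -2, or 0.25 RPM, in 4 or more of the 16 libraries, and 10458 genes had no read in any library. The libraries came from HCT116, a human colorectal carcinoma cell line, in 4 groups of 4. The groups were DAXXi_CR (35 nM DAXX siRNA with 10 mM crotonate), DAXXi (35 nM DAXX siRNA alone), NTi_CR (25 nM non-targeting siRNA with 10 mM crotonate) and NTi (25 nM non-targeting siRNA alone). The siRNA doses therefore also differed between the arms. The sample protocol gives 48 h of crotonate and the series text 18 h. All groups are of 1 cell line, and nothing in the labels says that the libraries of a group came from separate cultures, so p-values measure the spread between these libraries.

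DAXX is a chaperone that, with its partner ATRX, deposits the histone variant H3.3 at heterochromatin and other regions, and it also binds transcription factors and PML bodies. Crotonate is a short-chain fatty acid that cells can turn into crotonyl-CoA, the donor for lysine crotonylation (Kcr), a histone mark that acyltransferases such as p300 write, class I deacetylases remove and YEATS-domain proteins read. In the gut, such short-chain acids are also made by bacteria. In the design with each treatment alone and both together, the comparison asks whether loss of DAXX alters the response to crotonate, or crotonate the response to loss of DAXX.

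The libraries held 34265141 to 54093507 reads. All 8 colon epithelial markers were expressed and summed to between 3930 and 5110 RPM, against 0.0802 to 0.529 RPM for leukocyte, 11.4 to 27.7 RPM for fibroblast (DCN at 0 reads in every library) and 0.279 to 1.71 RPM for endothelial markers. Within groups, 1 axis of variation took 18.6% of the variance, and NTi replicate 2, DAXXi_CR replicate 4 and DAXXi replicate 4 lay farthest out on it. In such bulk samples, fewer cells of a type and less RNA per cell cannot be told apart.

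DAXX itself was measured at 13.1, 21.2, 18.9 and 24.2 RPM in DAXXi_CR and at 22.9, 27.4, 23.3 and 24.9 RPM in DAXXi, against 102, 102, 102 and 95.2 RPM in NTi_CR and 103, 105, 102 and 101 RPM in NTi. Every DAXX siRNA library was below every non-targeting library. The siRNA effect on DAXX was -2.41 log2 units with crotonate (limma adjusted p = 7.4e-10) and -2.07 without (adjusted p = 1.23e-08). The interaction of DAXX was -0.34 with a 95% interval from -0.71 to 0.03, so the knockdown was not distinguishable in depth between the arms, and a deeper knockdown with crotonate of up to 0.71 log2 units lies within the interval. The crotonate effect on the residual DAXX level was -0.38 in DAXX siRNA cells (adjusted p = 0.0452), against -0.04 in non-targeting cells (adjusted p = 0.884). The call in DAXX siRNA cells was lost in 13 of the 16 fits that left out 1 library. Without DAXXi_CR replicate 1, the lowest library, that effect was -0.21 (adjusted p = 0.132) and the interaction of DAXX -0.17.

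No gene departed from additivity by the threshold used, a limma p adjusted over all 17973 genes under 0.05. The count of 0 (0%) compares with 433 genes (2.41%) at an unadjusted p under 0.05, of which 199 (1.11%) were positive and 234 (1.3%) negative. A share of 5% is what p-values spread evenly would give. The smallest adjusted p was 0.995 and the smallest unadjusted p 0.000493, for DNER. Limma-voom on recovered reads also called 0, with 449 at an unadjusted p under 0.05. The unadjusted count was 1003 without DAXXi_CR replicate 3, 858 without NTi replicate 3 and 702 without NTi replicate 4, and no gene passed in any of these. It was 990 (5.51%) with library weights and 1542 (8.58%) with the within-group axis as a covariate, a setting added after the data were seen, again with no gene passing.

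The same fit did find effects of each treatment averaged over the other. Averaged over the siRNA arms, crotonate raised 3941 genes (21.9%) and lowered 1064 (5.92%). Averaged over the crotonate arms, DAXX siRNA raised 283 (1.57%) and lowered 401 (2.23%). The split for crotonate depended on scaling: centring each library on its median gene shifted the median crotonate effect of all genes by -0.12 and left 41.1% of calls higher, against 78.7% in the deposited scale and 50.7% after quantile scaling. Small crotonate effects of either sign are thus relative to that shift, whereas centring moved the median interaction by 0.01. Counts for DAXX siRNA were 176 higher and 248 lower without NTi_CR replicate 2, and the lower count was 260, 260 and 266 without DAXXi replicate 3, NTi_CR replicate 3 and NTi_CR replicate 4.

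How large a departure could have gone unseen was set by the level of the gene. The 95% interval of the interaction lay wholly within 1 log2 unit of 0 for 14334 genes (79.75%) and within 0.5 for 8781 (48.86%). By quartile of mean level, from low to high, the share within 1 log2 unit was 22.81%, 96.51%, 99.76% and 99.96%. All 526 genes with an estimate of at least 1 log2 unit in size were in the lowest quartile, under a mean of 2.35 RPM. At the median standard error of 0.18, a gene called alone would have needed an estimate of 1.15 to pass, and in the top quartile 0.82. Genes with a smaller standard error than these medians would have passed at a smaller estimate.

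**Figure D1:**
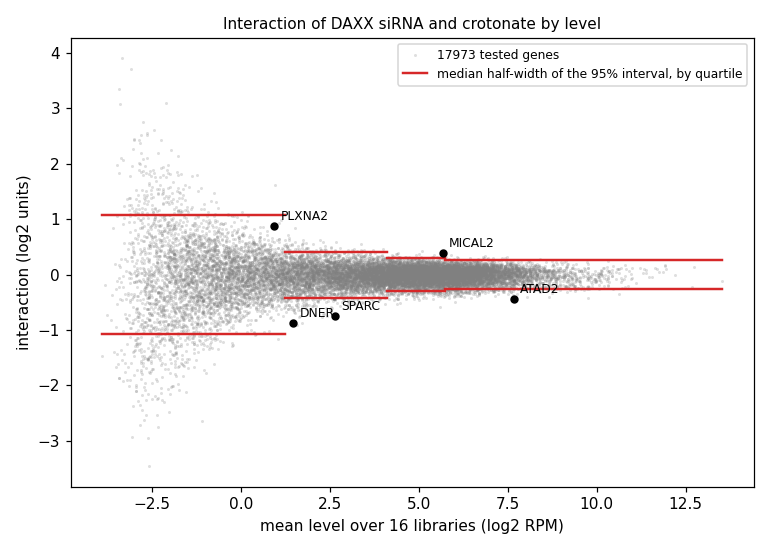
Interaction in log2 units (y) against mean level over the 16 libraries in log2 RPM (x) for the 17973 tested genes (grey), with red lines at the median half-width of the 95% interval in each quartile of level. The half-width is 1.07 in the lowest quartile and 0.26 in the highest, and the 5 genes drawn in black were not called.

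Genes that responded to crotonate did so to a like extent in both siRNA arms. Over the 5005 called genes, the median size of the crotonate effect was 0.39 log2 units in DAXX siRNA cells and 0.39 in non-targeting cells. The average effect and the interaction are independent contrasts here, so these genes were not chosen for their interaction. Signed so that positive means a larger crotonate effect with DAXX siRNA, the interaction had a median of -0.00067, with 2495 genes (49.85%) positive. The slope between the arms, DAXX siRNA over non-targeting, was 0.97 (leave-1-library-out error 0.11). This and every later slope is of a total least squares line through the origin, which treats both arms alike, not of a regression. Pearson's r was 0.88 across genes, which are not independent replicates and share their libraries. Among the 629 genes with an average effect of at least 1 log2 unit, chosen for a look after the values were seen, the slope was 0.96 and 46.26% were positive.

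**Figure D2:**
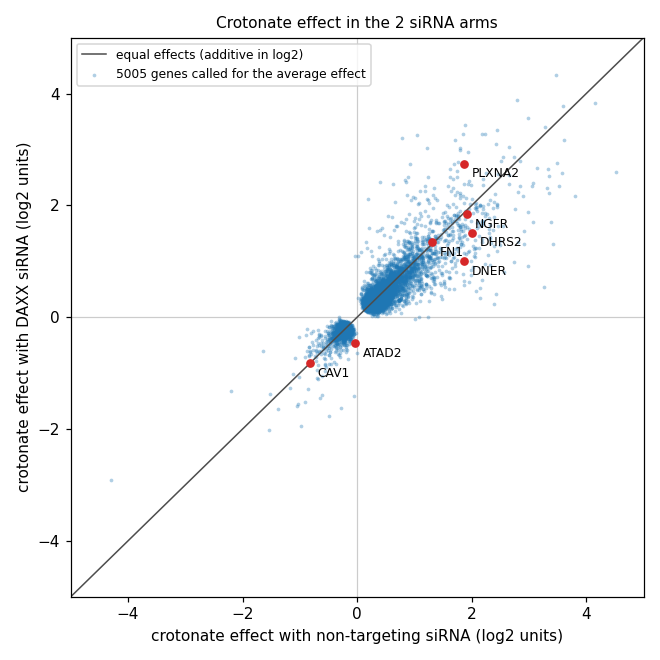
Crotonate effect in DAXX siRNA cells (y) against that in non-targeting cells (x), both in log2 units, for the 5005 genes called for the average crotonate effect, with the line of equal effects. The cloud follows the line with a slope of 0.97, and PLXNA2 and DNER lie above and below it.

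The neurotrophin receptor gene NGFR (chromosome 17, 49495293 to 49515008, plus strand, GRCh38) had the largest average rise with crotonate among genes with an official symbol and a highest group mean at or above the median level. It was measured at 37.6, 42.7, 37.2 and 49.1 RPM in DAXXi_CR and 9.16, 11.8, 10.4 and 15.6 RPM in DAXXi, against 44.5, 52.3, 45.1 and 47.5 RPM in NTi_CR and 12.6, 14.8, 11.7 and 11.4 RPM in NTi. The crotonate and no-crotonate libraries did not overlap in either arm. Its crotonate effect was 1.85 with DAXX siRNA and 1.91 with non-targeting siRNA, and the interaction was -0.07 (95% interval -0.46 to 0.33). The fibronectin gene FN1 rose by 1.35 and 1.31 in the same order (interaction 0.03, interval -0.21 to 0.28), the calcium sensor gene HPCAL4 by 1.34 and 1.41, and the neuropeptide precursor gene VGF by 1.34 and 1.39. SH3BGRL2 rose by 1.15 with DAXX siRNA and 1.52 with non-targeting siRNA (interaction -0.37, unadjusted p = 0.0786), and the teneurin adhesion gene TENM3 by 1.14 and 1.37 (interaction -0.23, unadjusted p = 0.0985).

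The 1064 genes lowered by crotonate had a slope of 1.02 between the arms. CAV1, the main coat protein of caveolae, averaged 251 ± 18 RPM in DAXXi_CR and 443 ± 28 RPM in DAXXi, against 231 ± 6.1 RPM in NTi_CR and 410 ± 35 RPM in NTi (SD, n = 4 each). Its crotonate effect was -0.82 in both arms, and the interaction was 0.0028 with an interval from -0.21 to 0.22, which crossed to a value just under 0 after quantile scaling. The keratin gene KRT80 (-0.85 with DAXX siRNA and -0.84 with non-targeting siRNA) and the aldehyde dehydrogenase gene ALDH3B1 (-0.82 and -0.79) fell alike. The effect was smaller in size with DAXX siRNA for the adhesion receptor gene ADGRF1 (-0.71 against -0.90), the serotonin receptor gene HTR7 (-0.60 against -0.88; interaction 0.27, unadjusted p = 0.0184) and IRS1, an insulin receptor substrate gene (-0.63 against -0.82), without any of these interactions passing after adjustment.

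For genes that responded to DAXX siRNA, effects were estimated slightly larger with crotonate than without it, by less than the error between libraries. Over the 684 called genes, the median size of the siRNA effect was 0.35 log2 units with crotonate and 0.31 without. Signed so that positive means a larger effect with crotonate, the interaction had a median of 0.05 (leave-1-library-out error 0.085), and 435 genes (63.6%) were positive. At an unadjusted p under 0.05 by limma were 24 of these and 1 of the negative ones, none called, beside 433 (2.41%) of all tested genes. Among the 5005 crotonate-called genes the counterparts were 67 and 73. The genes share their libraries, so the 24 and 1 are not independent. The slope was 1.15 with a leave-1-library-out error of 0.27, so it did not differ from 1 by more than its error. The share of positive genes ranged from 51.4% to 71.1% when 1 library was left out and was 49.8% with the within-group axis as a covariate. The DAXX transcript itself was at 19.3 ± 4.7 RPM in DAXXi_CR and 24.6 ± 2.1 RPM in DAXXi (SD, n = 4 each), and its part in this difference was not tested. Leaving out DAXX and SMIM40, which overlaps DAXX and may count its reads, gave 63.49%.

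**Figure D3:**
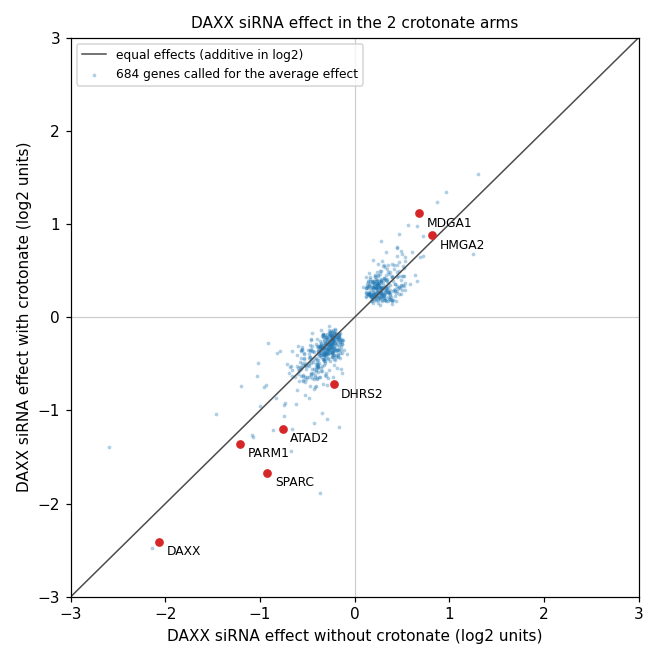
Effect of DAXX siRNA with crotonate (y) against that without crotonate (x), in log2 units, for the 684 genes called for the average siRNA effect, with the line of equal effects. The slope is 1.15 with a leave-1-library-out error of 0.27, and SPARC, ATAD2 and DHRS2 lie below the line.

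Among genes raised by DAXX siRNA, HMGA2, an architectural chromatin protein gene, averaged 319 ± 38 RPM in DAXXi_CR and 298 ± 18 RPM in DAXXi, against 173 ± 11 RPM in NTi_CR and 171 ± 27 RPM in NTi (SD, n = 4 each). Its siRNA effect was 0.88 with crotonate and 0.82 without, with an interaction of 0.06 (interval -0.25 to 0.37). The TAM receptor ligand gene GAS6 rose by 0.87 with crotonate and 0.72 without. The carboxypeptidase gene CPA4 rose by 0.99 with crotonate and 0.57 without (interaction 0.42, unadjusted p = 0.0148), and the glycosyltransferase gene GALNT5 by 0.71 with crotonate, against 0.49 without (adjusted p = 0.079, and 0.0321 without NTi replicate 1).

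The GPI-anchored adhesion gene MDGA1 was the highest where both treatments met. It was measured at 25, 23.3, 21.4 and 26.1 RPM in DAXXi_CR and 6.93, 10.8, 9.3 and 11.1 RPM in DAXXi, against 9.96, 12.1, 9.37 and 13 RPM in NTi_CR and 5.25, 7.54, 5.45 and 5.5 RPM in NTi. The DAXXi_CR libraries all lay above every other library, while DAXXi and NTi_CR overlapped. Each treatment raised MDGA1 on average (0.90 for DAXX siRNA, adjusted p = 3.1e-05; 1.13 for crotonate, adjusted p = 1.3e-07), and the interaction was 0.44 with an interval from -0.0023 to 0.89. The level expected if the effects multiply was 17.6 RPM, against a measured geometric mean of 23.9 RPM.

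Genes lowered by DAXX siRNA included PARM1, a mucin-like membrane protein gene, with 14.8, 18.5, 14.4 and 17.2 RPM in DAXXi_CR and 8.58, 8.32, 8.65 and 7.34 RPM in DAXXi, against 41, 41.3, 42 and 40.9 RPM in NTi_CR and 16.8, 19.6, 19.9 and 19.8 RPM in NTi. Crotonate raised PARM1 in both siRNA arms while the siRNA lowered it in both crotonate arms, and DAXXi_CR overlapped only NTi. The siRNA effect was -1.36 with crotonate and -1.21 without (interaction -0.15, interval -0.42 to 0.13). The immunoglobulin superfamily gene IGSF3 had the same pattern, with siRNA effects of -1.27 and -1.09 and crotonate effects of 0.64 with DAXX siRNA and 0.82 with non-targeting siRNA. The kinase gene MAP3K3 fell by 1.28 log2 units with crotonate and 1.08 without, and SMIM40 had siRNA effects of -2.48 and -2.15. The iron reductase gene CYBRD1 fell by 1.06 and 0.75 (interaction -0.31, unadjusted p = 0.0462).

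Genes that moved with both treatments allowed the log2 scale to be set against the RPM scale, on which the same data can look different. If effects add in log2 they multiply in RPM. Of 323 genes called for both average effects, 110 had expected DAXXi_CR levels at least 0.1 log2 units apart under multiplying and adding, and 75 of these were nearer the multiplied level. The median distance was 0.11 log2 units from the multiplied level and 0.19 from the added one, with no test. For single genes, the added level was taken from arithmetic group means and the measured and multiplied levels from geometric ones. PARM1 had a geometric mean of 16.1 RPM in DAXXi_CR, against 17.9 RPM expected if the effects multiply and 30.5 RPM if they add. IGSF3 had 45.5 RPM, against 51.6 and 76.8 RPM in the same order, and KRT80 had 7.07 RPM, against 7.13 and 4.73 RPM. An estimate near additive in log2 can thus be far from additive in RPM.

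**Figure D4:**
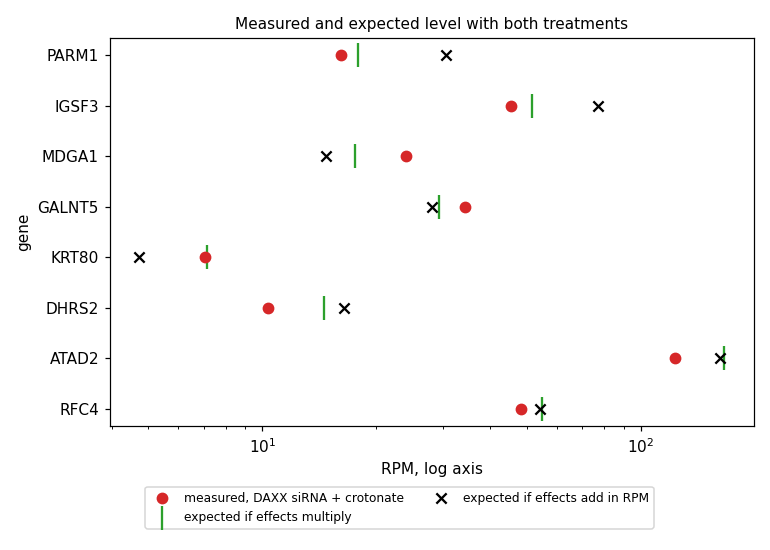
Measured geometric mean in DAXX siRNA cells with crotonate (red), level expected if the effects multiply (green bar) and level expected if they add in RPM (cross), on a log RPM axis, for 8 named genes. For PARM1, IGSF3 and KRT80 the measured level lies nearer the green bar than the cross (for PARM1 16.1 RPM, against 17.9 and 30.5 RPM). Only for KRT80 does it lie between the expectations, and for the other genes, PARM1 and IGSF3 included, it lies outside both. The cross is from arithmetic group means.

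The genes nearest to a departure are given by the smallest unadjusted p, 5 in each direction with a group mean of at least 1 RPM, and none was called. Their intervals are not adjusted for this choice, so they leave out 0 by selection and the estimates tend to be too large in size. The alternatives refit the same libraries. On the negative side, DNER (chromosome 2, 229357629 to 229714555, minus strand), a transmembrane protein gene with EGF-like repeats like those of Notch ligands, was measured at 4.06, 4.06, 3.76 and 4.04 RPM in DAXXi_CR and 2.39, 2.12, 1.93 and 1.61 RPM in DAXXi, against 5.63, 5.74, 4.47 and 5.07 RPM in NTi_CR and 1.31, 1.33, 1.36 and 1.73 RPM in NTi. Crotonate raised it in both arms without overlap, by 1.00 with DAXX siRNA and 1.87 with non-targeting siRNA. The interaction was -0.87 (SE 0.21, interval -1.31 to -0.44, unadjusted p = 0.000493, adjusted p = 0.995) and ranged from -0.97 to -0.79 over the alternatives.

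SPARC (chromosome 5, 151661096 to 151686975, minus strand), a secreted matricellular glycoprotein gene, had 3.7, 3.27, 3.92 and 3.86 RPM in DAXXi_CR and 4.16, 4.68, 4.94 and 3.62 RPM in DAXXi, against 12.6, 11.9, 9.45 and 13.1 RPM in NTi_CR and 6.98, 8.67, 8.58 and 8.7 RPM in NTi. Crotonate raised it with non-targeting siRNA (0.51, adjusted p = 0.0094), against -0.23 with DAXX siRNA (adjusted p = 0.26). The DAXX siRNA libraries with and without crotonate overlapped and the non-targeting ones did not. The siRNA effect was -1.67 with crotonate and -0.92 without, and the interaction -0.74 (SE 0.18, interval -1.12 to -0.36, unadjusted p = 0.000621). Another gene in the table, CLMAT3, overlaps it, and the counting strand is not given in the sources used here.

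ATAD2, a bromodomain ATPase gene, had 120, 128, 131 and 114 RPM in DAXXi_CR and 186, 168, 177 and 150 RPM in DAXXi, against 292, 269, 296 and 270 RPM in NTi_CR and 289, 231, 320 and 322 RPM in NTi. Crotonate lowered it with DAXX siRNA (-0.47, adjusted p = 0.0017), where the libraries did not overlap, against -0.03 with non-targeting siRNA, where they did. Its interaction was -0.43 (interval -0.71 to -0.15, unadjusted p = 0.00418) and gave the smallest adjusted p of any alternative, 0.0871 with the within-group axis as a covariate. The other negative genes were the antisense gene POC1B-AS1, which overlaps POC1B, at -1.28 (unadjusted p = 0.0016) with all 4 group means at or under 1.06 RPM, and the coiled-coil gene CCDC74B at -1.05 (unadjusted p = 0.00357), which has a paralog, CCDC74A. Whether reads were shared in counting within these pairs was not tested.

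On the positive side, PLXNA2 (chromosome 1, 208022242 to 208244384, minus strand), a semaphorin receptor gene, had 4.63, 4.93, 3.49 and 4.93 RPM in DAXXi_CR and 0.939, 0.582, 0.567 and 0.625 RPM in DAXXi, against 3.48, 4.37, 4.18 and 4.26 RPM in NTi_CR and 1.2, 1.46, 1.04 and 0.831 RPM in NTi. Crotonate raised it without overlap in both arms, by 2.75 with DAXX siRNA and 1.87 with non-targeting siRNA. The interaction was 0.88 (interval 0.28 to 1.47, unadjusted p = 0.00603). The FERM-domain gene FRMD3 had its group means in the same order, with 2.25 ± 0.24 RPM in DAXXi_CR and 0.84 ± 0.17 RPM in DAXXi, against 2.1 ± 0.26 RPM in NTi_CR and 1.43 ± 0.29 RPM in NTi (SD, n = 4 each) and an interaction of 0.87.

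MICAL2, an actin-oxidising monooxygenase gene, had 76.4, 63, 59.3 and 63.1 RPM in DAXXi_CR and 45.9, 48.9, 41.2 and 45.6 RPM in DAXXi, against 48.8, 55, 52.3 and 46.5 RPM in NTi_CR and 49.7, 48.1, 42.9 and 44.1 RPM in NTi. The DAXXi_CR libraries stood above all others. Crotonate raised it with DAXX siRNA (0.52, adjusted p = 0.00031), against 0.13 with non-targeting siRNA (adjusted p = 0.35), and the interaction was 0.39 (interval 0.13 to 0.65, unadjusted p = 0.00522). RPAP1, an RNA polymerase II-associated protein gene (0.39), and FOXN3-AS1 (1.13), an antisense gene that overlaps FOXN3, complete the 5.

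**Figure D5:**
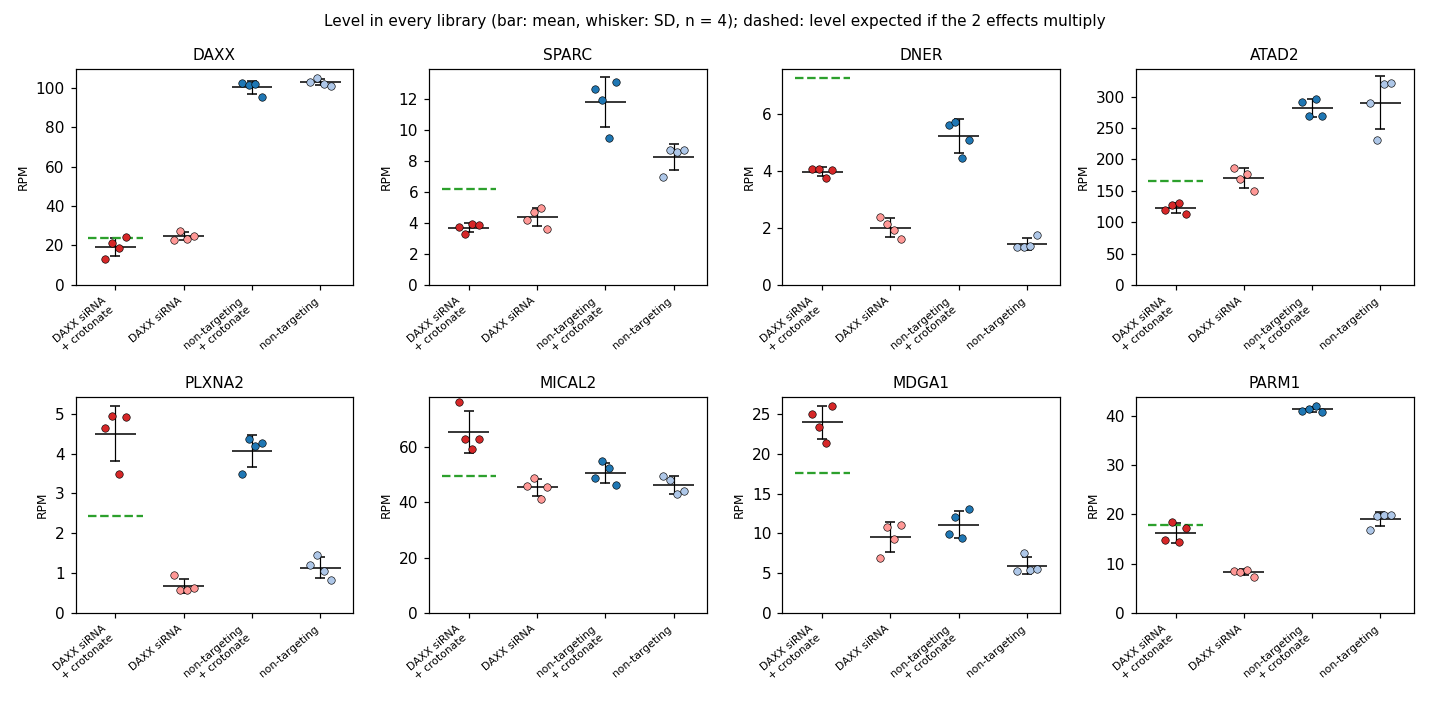
RPM in each of the 16 libraries for 8 genes, in the order DAXX siRNA with crotonate, DAXX siRNA, non-targeting siRNA with crotonate and non-targeting siRNA, with the mean and SD (n = 4) and, dashed, the level expected with both treatments if the effects multiply. DNER, SPARC and ATAD2 lie below the dashed level (for DNER 3.98 against 7.28 RPM), PLXNA2, MICAL2 and MDGA1 above it, and PARM1 beside it.

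Crotonate effects with DAXX siRNA and with non-targeting siRNA were estimated at 2.75 and 1.87 for PLXNA2 and at -0.23 and 0.51 for SPARC. PARM1 had an interaction of -0.15 (interval -0.42 to 0.13). None of these 3 interactions was called, and the promoters of the 3 genes are shown for their differing estimates. Each runs from 250 bases before to 50 after the RefSeq gene start, 5′ to 3′ on the gene's strand, in GRCh38.p14, with matches to 5 motifs in capitals: the GC box GGGCGG, the CCAAT box CCAAT, the AP-1 site TGANTCA, the E-box CACGTG and the TATA box TATAAA, on either strand. They lie at chr1:208244335-208244634 for PLXNA2 (minus strand), chr5:151686866-151687165 for SPARC (minus strand) and chr4:74932866-74933165 for PARM1 (plus strand).
PLXNA2: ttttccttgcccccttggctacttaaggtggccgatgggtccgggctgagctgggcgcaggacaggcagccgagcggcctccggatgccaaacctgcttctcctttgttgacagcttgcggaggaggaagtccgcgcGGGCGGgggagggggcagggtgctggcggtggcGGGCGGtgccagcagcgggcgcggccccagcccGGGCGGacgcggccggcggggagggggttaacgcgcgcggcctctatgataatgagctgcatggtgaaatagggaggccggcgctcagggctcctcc
SPARC: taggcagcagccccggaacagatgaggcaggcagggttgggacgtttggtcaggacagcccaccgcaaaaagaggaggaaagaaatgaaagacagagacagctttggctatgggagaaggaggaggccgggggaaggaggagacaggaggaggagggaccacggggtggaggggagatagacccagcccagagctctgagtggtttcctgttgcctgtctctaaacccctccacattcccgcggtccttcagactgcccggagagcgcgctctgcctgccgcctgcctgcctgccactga
PARM1: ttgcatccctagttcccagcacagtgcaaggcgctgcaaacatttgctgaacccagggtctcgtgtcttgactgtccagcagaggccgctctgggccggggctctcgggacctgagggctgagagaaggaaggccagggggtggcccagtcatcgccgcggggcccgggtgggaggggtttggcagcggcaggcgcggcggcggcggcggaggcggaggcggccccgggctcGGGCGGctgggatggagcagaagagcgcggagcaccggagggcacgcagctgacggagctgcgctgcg
PLXNA2 held 3 GC boxes, PARM1 held 1 and SPARC held 0, and none held another of the motifs. Over the 35116 promoters in the RefSeq table, 45% held a GC box, 34.6% a CCAAT box, 7.71% an AP-1 site, 7.26% an E-box and 11.5% a TATA box. The GC content was 70.3% for PLXNA2, 61.3% for SPARC and 71.3% for PARM1, against a median of 58.7%. These matches are a description of the letters only.

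By pathway, 29 gene lists held 0 interaction calls, so they are described by their medians and by counts at an unadjusted p under 0.05, beside a median of -0.01 and 2.41% over all tested genes. Among H3.3 chaperones and DAXX partners, 1 of 26 genes was positive and 1 negative at that level. The positive one was SETDB1, an H3K9 methyltransferase gene, with 44.6 ± 2.1 RPM in DAXXi_CR and 43.8 ± 2.9 RPM in DAXXi, against 40.7 ± 1.6 RPM in NTi_CR and 46.8 ± 2.5 RPM in NTi (SD, n = 4 each; interaction 0.23). Of 32 genes of crotonylation writing, erasing, reading and metabolism, 1 was positive, the peroxisomal oxidase gene ACOX3 (0.34), and 0 negative. None of 6 monocarboxylate transporter genes, through which such acids enter cells, reached that level, with SLC16A7 at -0.27. That value was -0.08 without NTi replicate 2 and 0.03 without the 3 libraries farthest out on the within-group axis.

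Genes of the cell cycle and of chromatin assembly were read beside 1.11% positive and 1.3% negative over all tested genes. Of 44 DNA replication genes, none reached an unadjusted p under 0.05 (median -0.03). The clamp loader gene RFC4 had 48.4 ± 4.1 RPM in DAXXi_CR and 59.1 ± 1.3 RPM in DAXXi, against 64.9 ± 4.4 RPM in NTi_CR and 69.9 ± 4.9 RPM in NTi (SD, n = 4 each), and was lowered on average by both treatments. None of 34 G2 and mitosis genes reached it either, with a median of -0.10 and the spindle gene NUSAP1 at -0.22. Of 8 replication-dependent histone genes 2 were negative, the linker histone gene HIST1H1C (-0.34) and the H2B gene HIST2H2BE (-0.92), and the list's interactions had a median of -0.11 and ran from -0.92 to 1.89.

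Several lists held many genes raised by crotonate, to be read against 21.9% raised and 5.92% lowered over all tested genes. Of 16 genes known to respond to deacetylase inhibitors, 11 rose with crotonate on average (8 after median centring, 9 after quantile scaling) and none fell. The list's median crotonate effect was 0.36 with DAXX siRNA and 0.38 with non-targeting siRNA. Its median average effect was 0.36 in the deposited scale, 0.23 after median centring and 0.32 after quantile scaling. DHRS2, a reductase gene of that list, had 8.82, 11.8, 10.9 and 10.1 RPM in DAXXi_CR and 4.16, 4.35, 2.95 and 3.23 RPM in DAXXi, against 17.2, 17.5, 18.1 and 15.4 RPM in NTi_CR and 3.74, 5.65, 3.72 and 4.08 RPM in NTi. Its DAXXi_CR libraries lay between the NTi_CR ones and those without crotonate, and the interaction was -0.49 (unadjusted p = 0.0289). Of 15 Wnt target and stem cell genes 10 rose with crotonate (3 fell only after median centring), at medians of 0.35 with DAXX siRNA and 0.42 with non-targeting siRNA. The Wnt inhibitor gene DKK1 rose by 0.54 and 0.76 in that order (interaction -0.22, unadjusted p = 0.042).

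Over all tested genes, 21.9% rose and 5.92% fell with crotonate, at median effects of 0.06 with DAXX siRNA and 0.07 with non-targeting siRNA. Of 30 immediate early and AP-1 genes, 15 rose with crotonate and 0 fell (11 and 4 after median centring). The list medians were 0.26 with DAXX siRNA and 0.22 with non-targeting siRNA. FOS, an AP-1 subunit gene, rose by 0.58 and 1.11 in that order (interaction -0.53, unadjusted p = 0.0265), against the list's median interaction of 0.05. Of 17 epithelial to mesenchymal transition genes 10 rose and 1 fell with crotonate, with medians of 0.50 and 0.49, and SPARC and the repressor gene ZEB1 (-0.44) were the 2 with a negative interaction at an unadjusted p under 0.05. Of 15 imprinted genes 8 rose and 0 fell (8 and 1 after median centring and after quantile scaling), at medians of 0.51 with DAXX siRNA and 0.35 with non-targeting siRNA, with the zinc finger gene PLAGL1 at an interaction of 0.21 (unadjusted p = 0.0494), and the small GTPase gene DIRAS3 rose by 1.30 with DAXX siRNA and 2.49 with non-targeting siRNA at group means of 0.19 to 1.07 RPM (interaction -1.19, unadjusted p = 0.0184).

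Stress and lipid genes held 0 interaction calls. Their counts at an unadjusted p under 0.05 are to be read beside 1.11% positive and 1.3% negative over all tested genes. Of 28 integrated stress response genes, 16 fell and 1 rose with crotonate on average, against 5.92% lowered and 21.9% raised over all tested genes, with medians of -0.18 with DAXX siRNA and -0.23 with non-targeting siRNA, and none had an interaction at an unadjusted p under 0.05 (SESN2, a sestrin gene, at 0.28). Of 24 NRF2 targets, 2 were negative, NQO1 and the peroxiredoxin gene PRDX1 (-0.27). The quinone reductase gene NQO1 had 592 ± 35 RPM in DAXXi_CR and 583 ± 16 RPM in DAXXi, against 641 ± 15 RPM in NTi_CR and 535 ± 24 RPM in NTi (SD, n = 4 each). Its interaction was -0.24 (unadjusted p = 0.0112). Of 25 cholesterol synthesis genes 1 was negative, INSIG1, which retains the sterol sensor in the endoplasmic reticulum, with 94.6 ± 3 RPM in DAXXi_CR and 93.5 ± 7.8 RPM in DAXXi, against 108 ± 4.3 RPM in NTi_CR and 84.5 ± 7.1 RPM in NTi (SD, n = 4 each). Crotonate raised INSIG1 with non-targeting siRNA (0.36, adjusted p = 0.0021), against 0.02 with DAXX siRNA (adjusted p = 0.90), and the interaction was -0.34 (unadjusted p = 0.00444).

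Of the other metabolic and stress lists, the unfolded protein response had 1 negative gene of 20, the translocon gene SEC61B (-0.38), and fatty acid oxidation had 1 positive of 23, ACOX3 again. Fatty acid synthesis (12 genes, ACSL3 at -0.18), PPAR targets (10, PDK4 at -0.40), metallothioneins (7, MT1E at -0.30), glycolysis and hypoxia (26, HK2 at 0.23) and heat shock (14, HSP90AA1 at -0.23) had 0. Of 22 p53 targets 2 were negative, the damage recognition gene DDB2 (-0.27) and the ribonucleotide reductase gene RRM2B (-0.39), at a list median of -0.13. Of 17 iron and heme genes 1 was negative, CYBRD1. Epithelial junction genes (24) and NF-kB and chemokine genes (14, CXCL16 at 0.21) had 0. Of all tested genes, 21.9% rose and 5.92% fell with crotonate on average, at median effects of 0.06 with DAXX siRNA and 0.07 with non-targeting siRNA. Of the NF-kB list 5 of 14 rose and 2 fell, at median effects of 0.33 with DAXX siRNA and 0.48 with non-targeting siRNA. The interferon-stimulated list had 1 negative of 36, IFI44, at -2.75 and group means of 0.14 to 0.38 RPM, a level at which NTi replicate 1 had 0.0292 RPM, or 1 read. With crotonate 18 of the list rose and 3 fell on average (12 and 6 after median centring, 11 and 7 after quantile scaling), at medians of 0.21 with DAXX siRNA and 0.32 with non-targeting siRNA.

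The genes of the translation and respiration machinery had small median shifts. The 78 cytosolic ribosomal protein genes had a median interaction of -0.14, which was -0.13 after median centring and -0.14 after quantile scaling. Their median crotonate effect was -0.23 with DAXX siRNA and -0.06 with non-targeting siRNA. Averaged over the arms it was -0.15 in the deposited scale, -0.27 after median centring and -0.075 after quantile scaling. In that order 8, 72 and 1 of the 78 genes were called lower, against 1064, 3600 and 2459 of all 17973 tested genes. For the interaction, 1 gene, RPL14, was negative at an unadjusted p under 0.05. RPL14 had 606 ± 51 RPM in DAXXi_CR and 744 ± 35 RPM in DAXXi, against 656 ± 5.5 RPM in NTi_CR and 684 ± 63 RPM in NTi (SD, n = 4 each). Genes of nuclear-encoded oxidative phosphorylation had a median of -0.07 over 44 (COX5B at -0.36), and 13 mitochondrially encoded genes a median of 0.09 (MT-ND5 at 0.25). The genes of a list share their libraries, so they are not independent values.

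Anti-Kcr ChIP-seq of the same 4 conditions was read for another measure of the interaction, in 49916 regions and 10 samples (2 Kcr_DAXXi_CR, 3 Kcr_DAXXi, 2 Kcr_NTi_CR and 3 Kcr_NTi). Libraries 1A and 1B differed by little more than the sampling noise (chi-square over degrees of freedom 1.006 and 1.013, against 1.036 to 1.379 for other pairs within a group) and were averaged to 1 sample in each group. The Kcr interaction was called for 0 regions (0%), with 1542 (3.09%) at an unadjusted p under 0.05 by limma. A region lay within 2 kb of the start of 12308 tested genes (68.5%) and of 40 of the 60 named genes. At 1 of these 40, RPL14, the Kcr interaction had an unadjusted p under 0.05 (0.0349, at 0.70 log2 units, opposite in sign to its RNA interaction).

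Within 2 kb of the start of DNER the Kcr interaction was -0.39 (SE 0.51), at PARM1 0.08 (SE 0.40), at MICAL2 -0.10 (SE 0.27, region 1908 bases away) and at RPAP1 0.34 (SE 0.28) (unadjusted p by limma 0.452, 0.851, 0.715 and 0.236 in that order). For the remaining genes named for the interaction with a region, it was 0.41 at POC1B-AS1, -0.06 at FOXN3-AS1 and -0.62 at CCDC74B (unadjusted p by limma 0.228, 0.852 and 0.421). The RNA and Kcr interactions had the same sign at 17 of the 40 named genes with a region. When 1 sample was left out the sign turned at DNER (0.21 without Kcr_DAXXi_CR replicate 3), at MICAL2 (0.22 without Kcr_NTi_CR replicate 2) and at CCDC74B (0.36 without Kcr_DAXXi_CR replicate 2). Over the alternatives PARM1 ranged from -0.14 to 0.28 and FOXN3-AS1 from -0.34 to 0.22. RPAP1 stayed positive, from 0.16 to 0.47, as did POC1B-AS1, from 0.03 to 0.79. Across the 12308 genes the RNA and Kcr interactions had a Pearson's r of 0.0031, given as a description. The Kcr samples with crotonate number 2 in each arm, and a region's interaction had a standard error of 0.19 to 0.76 at the named genes, so only large Kcr departures could have been seen.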

How the data were processed

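The RNA table deposited by the authors holds log2 RPM per gene without division by length, with 0 reads entered as 0.9 read before scaling, and the ChIP table holds deposited log2 scaled reads per region. Per the submitters' processing notes, reads were trimmed with Trim Galore 0.6.2 (RNA) or 0.6.5 (ChIP) and cutadapt 2.3 and aligned to GRCh38 with HISAT2 2.2.1 (RNA) or Bowtie2 (ChIP), and MACS is named for regions. The sources used here do not give the counting strand or how regions were merged. Undoing each library's scaling gave whole reads for 100% of non-zero values (tolerance 0.01 read, widened in proportion to the count).

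Limma 3.58.1 in R 4.3.3 modelled each group mean, let the prior variance follow the level, and adjusted p by Benjamini-Hochberg over all tested features, calling at an adjusted p under 0.05. Library 1A and 1B of each Kcr group without crotonate counted as 1 sample, and the input did not enter. Slopes between arms are of total least squares lines through the origin. Geometric means and the levels expected if effects multiply were taken from group means of log2 RPM. Levels expected if effects add were taken from arithmetic group means of RPM. The comparison over the 323 genes called for both average effects used arithmetic means for all levels. The fits were checked on simulated data, with changes put only into genes or regions at or above the median level. All features were given the same added spread, so the check does not bear on low-level genes or on unlike spread. Alternatives were median centring, quantile scaling, other filters, no variance trend, library weights, limma-voom on recovered reads, a replicate block and leaving out each library. The within-group axis as a covariate, leaving out its 3 outlying libraries and the subsets by effect size or without DAXX and SMIM40 were added after the data were seen.

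Genes were named by rule: DAXX, the 5 smallest p in each direction of the interaction (at least 1 RPM in the highest group, not called), the 6 largest called changes in each direction of each average effect (highest group mean at or above the median level), and from each list its called genes or, with none, the gene of smallest interaction p. The members, lists and rule were chosen with earlier results of these data known. HIST2H2BE, PRDX1, ZEB1, RRM2B and PLAGL1 fall outside the rule and were named after their values were seen, and some genes of the rule and lists are not reported here.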

Additional observations from a re-analysis of the deposited data

Results flagged for a closer look

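In 17 of 240 groups of 4 libraries, the highest or lowest library stood apart from the other 3 by Dixon's 95% criterion, on the log2 scale, where chance gives about 1 in 20.

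With DAXX siRNA and crotonate, DNER was low in replicate 3 at 3.76 RPM, while the other libraries had 4.04 to 4.06 RPM. HPCAL4 was high in replicate 1 at 26.6 RPM, while the other libraries had 22.6 to 22.9 RPM. IGSF3 was low in replicate 3 at 39.5 RPM, while the other libraries had 46.9 to 48.2 RPM. MT1E was low in replicate 1 at 126 RPM, while the other libraries had 164 to 167 RPM. TENM3 was high in replicate 2 at 15.4 RPM, while the other libraries had 13.7 to 13.9 RPM. With DAXX siRNA alone, COX5B was high in replicate 3 at 139 RPM, while the other libraries had 112 to 113 RPM. With non-targeting siRNA and crotonate, CYBRD1 was high in replicate 1 at 27.6 RPM, while the other libraries had 25.3 to 25.6 RPM. DAXX was low in replicate 4 at 95.2 RPM, while the other libraries were close to 102 RPM. DKK1 was low in replicate 2 at 470 RPM, while the other libraries had 506 to 512 RPM. PDK4 was low in replicate 4 at 1.96 RPM, while the other libraries had 3.36 to 3.65 RPM. With non-targeting siRNA alone, DNER was high in replicate 4 at 1.73 RPM, while the other libraries had 1.31 to 1.36 RPM. IFI44 was low in replicate 1 at 0.0292 RPM, while the other libraries had 0.147 to 0.203 RPM. MDGA1 was high in replicate 2 at 7.54 RPM, while the other libraries had 5.25 to 5.5 RPM. PARM1 was low in replicate 1 at 16.8 RPM, while the other libraries had 19.6 to 19.9 RPM. SH3BGRL2 was low in replicate 2 at 5.92 RPM, while the other libraries had 9.34 to 10.2 RPM. SLC16A7 was low in replicate 2 at 8.98 RPM, while the other libraries had 14.3 to 15.4 RPM. SPARC was low in replicate 1 at 6.98 RPM, while the other libraries had 8.58 to 8.7 RPM. NTi replicate 2, which lay farthest out on the within-group axis, was the library apart for MDGA1, SH3BGRL2 and SLC16A7. Whether that axis bears on these values was not tested.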

How the results depend on the processing

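The interaction called 0 genes under all 26 alternatives and its smallest adjusted p was 0.0871. Of 60 named genes, 52 kept the sign of their interaction throughout. Many were named for a small interaction p and the alternatives refit the same libraries, so a kept sign is no support for an interaction. The share over all tested genes was not taken. Counts for the average effects moved. Crotonate raised 2507 and lowered 3600 genes after median centring, and 2530 and 2459 after quantile scaling, where the scaling shifts all genes by construction. With library weights crotonate lowered 1922 genes, and DAXX siRNA raised 816 and lowered 1022. With 1 within-group component as a covariate, chosen after seeing the data, crotonate lowered 1955 genes and DAXX siRNA raised 1320 and lowered 1312. Without the 3 libraries farthest out on it, DAXX siRNA raised 504 and lowered 674. The cause of the last 3 was not tested. Leaving out 1 library gave 176 to 409 genes raised and 248 to 544 lowered by DAXX siRNA, with no count past 1.5 times the reported one for crotonate. The slope across siRNA arms ranged from 0.92 to 1.02 and that across crotonate arms from 1.01 to 1.28 over all alternatives.

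A replicate block was tried because the labels number libraries 1 to 4 in every group. It called 0 genes for the interaction (632 at an unadjusted p under 0.05), with 4273 raised and 1295 lowered by crotonate and 416 raised and 507 lowered by DAXX siRNA. Whether the numbers pair the libraries was not settled. Of 24 same-numbered pairs, correlations of deviations ran from -0.25 to 0.19, 5 were over 0.1, and 7 of 16 libraries correlated best with their own number. Other-numbered pairs ran from -0.19 to 0.31. On the within-group axis, replicate 1 lay at 0.236, 0.225, 0.115 and 0.103 in DAXXi, DAXXi_CR, NTi and NTi_CR. Replicate 4 lay at -0.357, -0.394, 0.266 and -0.0805 in that order. For Kcr, 0 regions were called under every alternative, with smallest adjusted p values of 0.0673 without Kcr_NTi_CR replicate 2, 0.0877 without Kcr_DAXXi_CR replicate 2 and 0.997 with the replicate block. Low level limits the lowest quartile of genes, where 22.81% of intervals lay within 1 log2 unit.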
